A study of Saccharomyces cerevisiae with 2 samples.

Results

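CUTs, Cryptic Unstable Transcripts, of higher abundance were examined in 2 RNA-seq libraries of the *S. cerevisiae* strain BY4741, 1 from *xrn1*∆ *trf4*∆ and 1 from *trf4*∆. The CUTs were chosen by their read densities. A CUT was taken when its density was above 0 in both libraries and the geometric mean of both densities was at least 0.2 reads per nucleotide. Of 925 CUTs listed, 455 (49.2%) met this rule. Another 460 CUTs had a density above 0 in both libraries and a geometric mean below 0.2, and 10 were listed at 0 in *trf4*∆, 2 of them in both libraries. The whole table lists 9633 transcripts.

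The deletion of *TRF4*, whose product adds poly(A) tails to nuclear RNAs as part of TRAMP, is shared by both strains. The gene deleted in *xrn1*∆ *trf4*∆ alone is *XRN1*, for the main 5′–3′ exoribonuclease of the cytoplasm. Cells were taken from exponential, asynchronous cultures in YPD, a rich glucose medium. Each strain is represented by a single culture and a single library, so no difference between strains has a replicate check and no p-value is given. Wild type is not analysed here, and whether these CUTs accumulate on loss of Trf4p is therefore not addressed. The labels were checked on the deleted genes. *TRF4* had 1 read in *xrn1*∆ *trf4*∆ and 0 in *trf4*∆, and *XRN1* had 111 reads in *xrn1*∆ *trf4*∆ and 7272 in *trf4*∆.

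CUTs are short non-coding RNAs that RNA polymerase II makes in large part from nucleosome-free regions, often divergently from the promoters of coding genes. In wild type cells their transcription is ended early by the Nrd1–Nab3–Sen1 complex, TRAMP adds a short poly(A) tail, and the nuclear exosome with Rrp6p degrades them, so they become visible mainly when this pathway is impaired. Transcripts that leave the nucleus are instead open to decapping and 5′–3′ degradation by Xrn1p, the route that defines XUTs (Xrn1p-sensitive Unstable Transcripts). SUTs, Stable Unannotated Transcripts, are non-coding RNAs that are seen without removal of a decay factor. The comparison of *xrn1*∆ *trf4*∆ with *trf4*∆ thus asks how the level of CUTs differs when Xrn1p is removed from cells that already lack Trf4p.

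The table holds neither coordinates nor lengths of CUTs, and no position, neighbouring gene or sequence of a CUT is used here. Read numbers and lengths were recovered from the densities themselves. In *trf4*∆ the density of an ORF multiplied by its length was a whole number of reads, and in *xrn1*∆ *trf4*∆ it was a multiple of 0.626, so that 1 read of that library is worth 0.626. For each transcript the smallest length that gives whole reads in both libraries was taken, and it was found for all 925 CUTs. Over 5633 ORFs of known length, the smallest length was the known one for 76.2% of ORFs, and the known length was a whole multiple of it for 99.4%. Lengths and reads given below are thus lower limits that hold exactly for most transcripts. The 455 CUTs had a median length of 409 nt (quartiles 249 and 561 nt). They held between 18 and 20672 reads in *xrn1*∆ *trf4*∆ with a median of 238, and between 12 and 46461 reads in *trf4*∆ with a median of 176. At least 30 reads in each library were recovered for 439 of them.

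The median density of the 455 CUTs was 0.372 reads per nucleotide in *xrn1*∆ *trf4*∆ (quartiles 0.255 and 0.603) and 0.401 in *trf4*∆ (quartiles 0.268 and 0.669). Set against ORFs of the same library, the medians lay at the 39.2nd percentile in *xrn1*∆ *trf4*∆ and at the 63.0th in *trf4*∆. The median ORF density was 0.497 in *xrn1*∆ *trf4*∆ and 0.260 in *trf4*∆, and 149 of the CUTs exceeded it in *xrn1*∆ *trf4*∆ and 353 in *trf4*∆. The density itself was 0.2 or more in both libraries for 341 CUTs, in *xrn1*∆ *trf4*∆ only for 50 and in *trf4*∆ only for 64. A density above 1 was reached by 40 CUTs in *xrn1*∆ *trf4*∆ and by 62 in *trf4*∆, and a density above 5 by 4 in *xrn1*∆ *trf4*∆ and by 8 in *trf4*∆. These CUTs took 85.3% of all CUT reads in *xrn1*∆ *trf4*∆ and 90.2% in *trf4*∆.

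**Figure D1:**
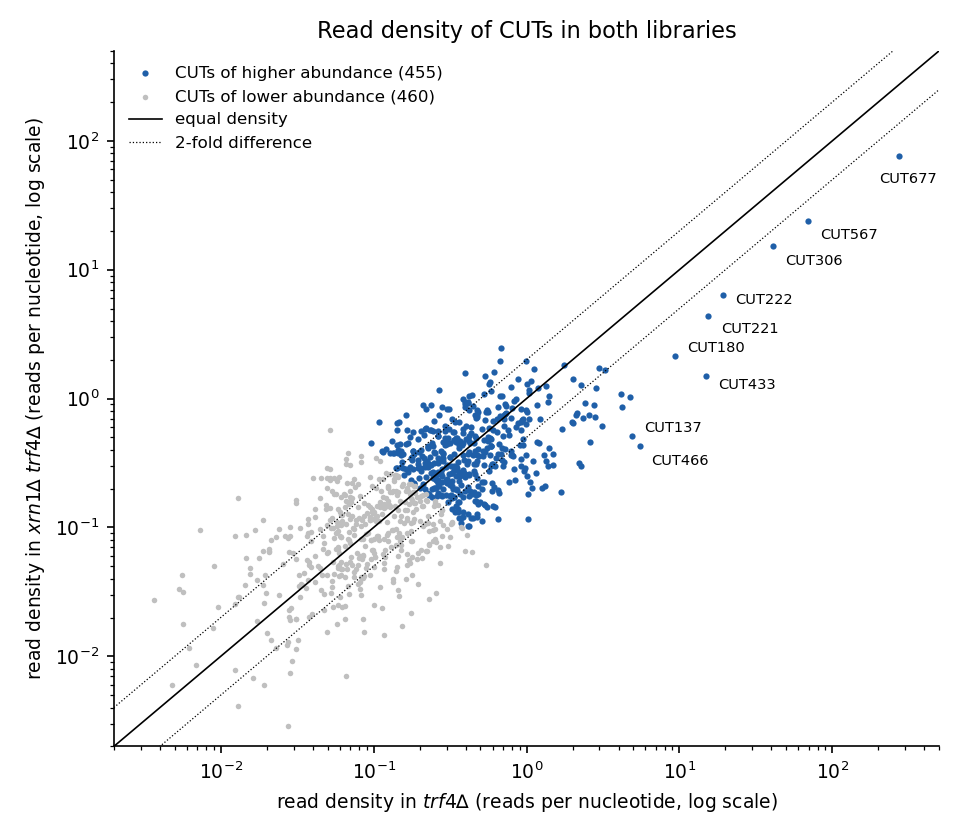
Read density of 455 CUTs of higher abundance (blue) and 460 of lower abundance (grey) in *trf4*∆ (x axis) and *xrn1*∆ *trf4*∆ (y axis), both in reads per nucleotide on log scales, with lines of equal density and of a 2-fold difference. The CUTs of highest density, up to 76.6 in *xrn1*∆ *trf4*∆ and 275 in *trf4*∆, lie below the line of a 2-fold difference.

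As a group the 455 CUTs were close to even between the libraries under the authors' normalization, while most other transcripts were higher in *xrn1*∆ *trf4*∆. With log2 ratios taken as *xrn1*∆ *trf4*∆ over *trf4*∆, the median was -0.22 (quartiles -0.97 and 0.60), and 204 CUTs (44.8%) were higher in *xrn1*∆ *trf4*∆. Over the 9423 transcripts of all classes seen in both libraries the median was 0.76, and 77.4% were higher. The rule read the same densities, so these values are a description. At least 2-fold higher density in *xrn1*∆ *trf4*∆ was found for 67 CUTs (14.7%), against 40.5% of all transcripts. At least 2-fold lower density was found for 113 CUTs (24.8%), against 6.53% of all transcripts. A 95% interval of the log2 ratio was computed for each transcript from its reads (exact Clopper-Pearson, counting error only). It lay above 0 for 156 CUTs (34.3%), where 66.1% of all transcripts did so, and below 0 for 200 CUTs (44.0%), where 14.9% of all transcripts did so. For 99 CUTs it held 0.

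The direction of the median rests on the way the CUTs were taken, and its size on the scale between the libraries. With a density of at least 0.2 in *xrn1*∆ *trf4*∆ alone as the rule, the median over 439 CUTs was 0.19. With a density of at least 0.2 in *trf4*∆ alone it was -0.44 over 458 CUTs. When the median ORF of both libraries was instead set to the same density, all log2 ratios shifted by -0.94. The median was then -1.16 and 80 of the 455 CUTs (17.6%) were higher in *xrn1*∆ *trf4*∆. Of ORFs with a geometric mean density of at least 0.2, 37.9% were higher at that scale, against 79.9% under the authors' normalization.

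The distance to other RNA classes does not depend on that scale. Under the same rule of density, the median log2 ratio was -0.22 for CUTs, 1.10 for 289 SUTs, 0.85 for 441 XUTs and 0.67 for 3969 ORFs. The CUT median thus lay 1.31 below that of SUTs, 1.06 below that of XUTs and 0.89 below that of ORFs on the log2 scale. XUTs are a class defined by sensitivity to Xrn1p, so the distance to them is in part given by that definition. At least 2-fold lower density in *xrn1*∆ *trf4*∆ was found for 24.8% of these CUTs, 2.77% of these SUTs, 3.40% of these XUTs and 2.39% of these ORFs. Unlike the distances, these shares depend on the scale, and 246 of the 455 CUTs (54.1%) were at least 2-fold lower with the median ORF set equal. That shift lowers every transcript alike, and the share of the other classes at that scale was not computed. The difference from ORFs was smaller, -0.59, with the rule on *xrn1*∆ *trf4*∆ density alone, and kept its sign under each of the 7 other settings tried for it. CUTs of lower abundance had a median of 0.07, and 21.7% of them were at least 2-fold lower and 23.0% at least 2-fold higher. The SD of the ratios was 1.14 for the 455 CUTs and 1.28 for CUTs of lower abundance. Under the same rule of density it was 0.95 for SUTs, 0.96 for XUTs and 0.83 for ORFs. Counting error differs between these sets. The median width of the 95% counting interval was 0.59 for the 455 CUTs and 1.47 for CUTs of lower abundance. It was 0.50 for SUTs and for XUTs and 0.28 for ORFs. ORF intervals used reads at the known length, while CUTs, SUTs and XUTs kept the recovered reads, which are lower limits. Some of their intervals can thus be too wide. The SDs include counting error, and its part in them was not tested.

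**Figure D2:**
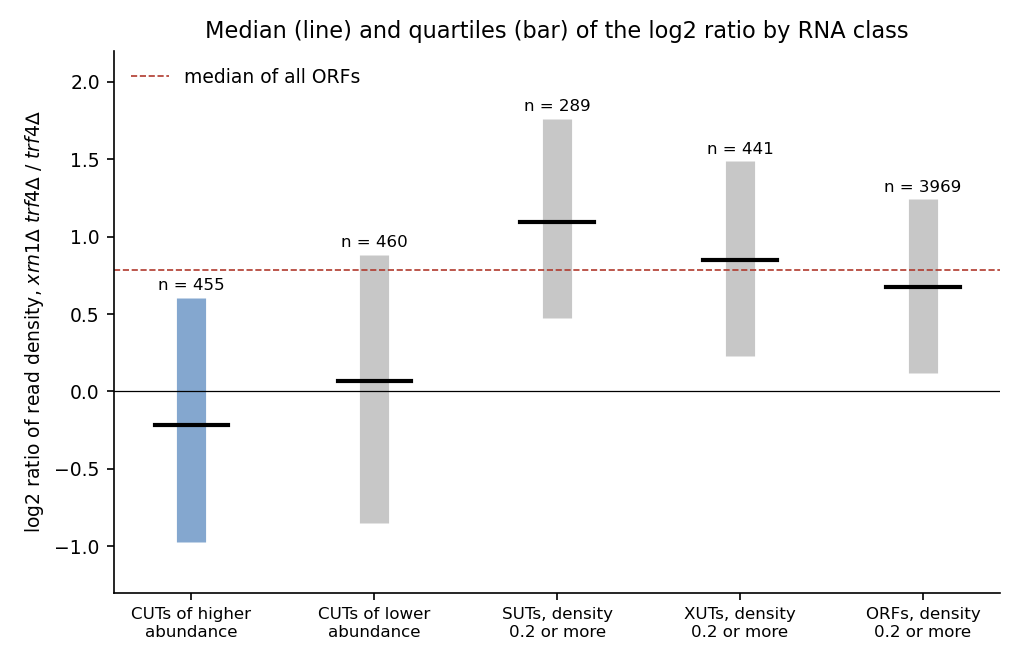
Median (line) and quartiles (bar) of the log2 ratio of read density, *xrn1*∆ *trf4*∆ over *trf4*∆, for CUTs of higher and lower abundance and for SUTs, XUTs and ORFs with a geometric mean density of at least 0.2. The bar of the 455 CUTs reaches from -0.97 to 0.60 and ends below the dashed line, the median of all ORFs (0.78).

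The level of CUTs was very uneven, and a handful held much of the reads. CUT677 (169 nt) had a density of 76.6 reads per nucleotide in *xrn1*∆ *trf4*∆ (20672 reads) and 275 in *trf4*∆ (46461 reads). CUT567 (145 nt) had 24.0 in *xrn1*∆ *trf4*∆ and 69.3 in *trf4*∆. CUT306 (321 nt) had 15.1 in *xrn1*∆ *trf4*∆ and 40.8 in *trf4*∆. All of these were lower in *xrn1*∆ *trf4*∆, and so were the consecutively numbered CUT222 (249 nt) and CUT221 (409 nt). CUT222 had a density of 6.33 in *xrn1*∆ *trf4*∆ and 19.3 in *trf4*∆, and CUT221 had 4.36 in *xrn1*∆ *trf4*∆ and 15.5 in *trf4*∆. The log2 ratios of these 5 CUTs of highest density lay between -1.84 (CUT677, 95% counting interval -1.87 to -1.82) and -1.43 (CUT306, -1.47 to -1.39). Together they took 19.6% of the reads on the 455 CUTs in *xrn1*∆ *trf4*∆ and 42.5% in *trf4*∆, and CUT677 alone took 10.3% in *xrn1*∆ *trf4*∆ and 24.5% in *trf4*∆.

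These few CUTs therefore set any value summed over the group. The log2 ratio of the summed reads, scaled as the densities are, was -0.60 over the 455 CUTs, -0.35 without CUT677 and -0.11 without the 5 CUTs of highest density. The median of single ratios changed less, to -0.17 without these 5. The 7 CUTs of highest density, with CUT433 and CUT180 after the 5 named, have a gap to the next one in geometric mean density, from 4.46 (CUT180) to 2.32 (CUT841). Over 82 sn/snoRNAs, the abundant RNAs of splicing and rRNA modification, geometric mean density had a 10th percentile of 7.99 and a median of 29.8. The 5 CUTs named above lay over that percentile, at 8.22 to 145, and CUT433 and CUT180 lay under it. The log2 ratios of the 7 CUTs lay between -3.32 and -1.43. The median ratio of sn/snoRNAs was -2.06, and each of the 82 was below 0. Whether any of these CUTs shares reads with a sn/snoRNA gene was not tested, since no coordinates of CUTs are used.

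The lowest ratios among CUTs with at least 30 reads in each library belonged to CUT466, CUT433, CUT137, CUT676 and CUT138. CUT466 (225 nt) had a density of 0.429 in *xrn1*∆ *trf4*∆ (154 reads) and 5.56 in *trf4*∆ (1252 reads), a log2 ratio of -3.70 (-3.95 to -3.46). CUT433 (113 nt) had 1.49 in *xrn1*∆ *trf4*∆ and 14.8 in *trf4*∆, a log2 ratio of -3.32 (-3.51 to -3.13). Both were thus over 8-fold lower in *xrn1*∆ *trf4*∆. They were among the CUTs of highest density in *trf4*∆, which a choice by low ratio favours by construction. CUT137 (137 nt) had a density of 0.512 in *xrn1*∆ *trf4*∆ and 4.86 in *trf4*∆. CUT676 (113 nt) had 0.188 in *xrn1*∆ *trf4*∆ (34 reads) and 1.69 in *trf4*∆ (191 reads). CUT138 (265 nt) had 0.116 in *xrn1*∆ *trf4*∆ and 1.02 in *trf4*∆. The last 3 had log2 ratios from -3.25 to -3.14. CUT137 and CUT138 carry consecutive numbers, and CUT676 stands next to CUT677. Other neighbours in number had unlike ratios. CUT465 (of lower abundance) and CUT467, on either side of CUT466, had log2 ratios of 1.74 and -0.15. CUT432 and CUT434, on either side of CUT433, had -1.20 and -0.79. What the numbering follows is not stated in the sources used here.

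The highest ratios under the same read minimum belonged to CUT267, CUT014, CUT640, CUT395 and CUT865. CUT267 (689 nt) had a density of 0.654 in *xrn1*∆ *trf4*∆ (720 reads) and 0.109 in *trf4*∆ (75 reads), a log2 ratio of 2.59 (2.24 to 2.95). CUT014 (849 nt) had 0.451 in *xrn1*∆ *trf4*∆ and 0.0966 in *trf4*∆, the lowest *trf4*∆ density of the 455 CUTs. CUT640 (1369 nt) had 0.743 in *xrn1*∆ *trf4*∆ and 0.163 in *trf4*∆. None of these CUTs was abundant in *trf4*∆, which a choice by high ratio favours by construction. Of the 5, 4 are longer than the upper quartile of length. CUT395 (2033 nt) had 0.650 in *xrn1*∆ *trf4*∆ (2111 reads) and 0.143 in *trf4*∆ (290 reads). CUT865 (217 nt), the short one, had 0.658 in *xrn1*∆ *trf4*∆ (228 reads) and 0.147 in *trf4*∆ (32 reads). The ratios of CUT014, CUT640, CUT395 and CUT865 lay between 2.16 and 2.22, and each counting interval lay above the ORF median of 0.78 and above 0 under every scaling tried.

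The CUTs nearest the median ratio were close to even between the libraries, at different levels. CUT091 (489 nt), whose ratio is the median of the group, had a density of 0.292 in *xrn1*∆ *trf4*∆ (228 reads) and 0.339 in *trf4*∆ (166 reads). CUT813 (633 nt) had 0.292 in *xrn1*∆ *trf4*∆ and 0.340 in *trf4*∆, and CUT176 (353 nt), which stood above the upper quartile of density in both libraries, had 0.608 in *xrn1*∆ *trf4*∆ and 0.708 in *trf4*∆. The counting intervals of these 3 CUTs held 0.

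**Figure D3:**
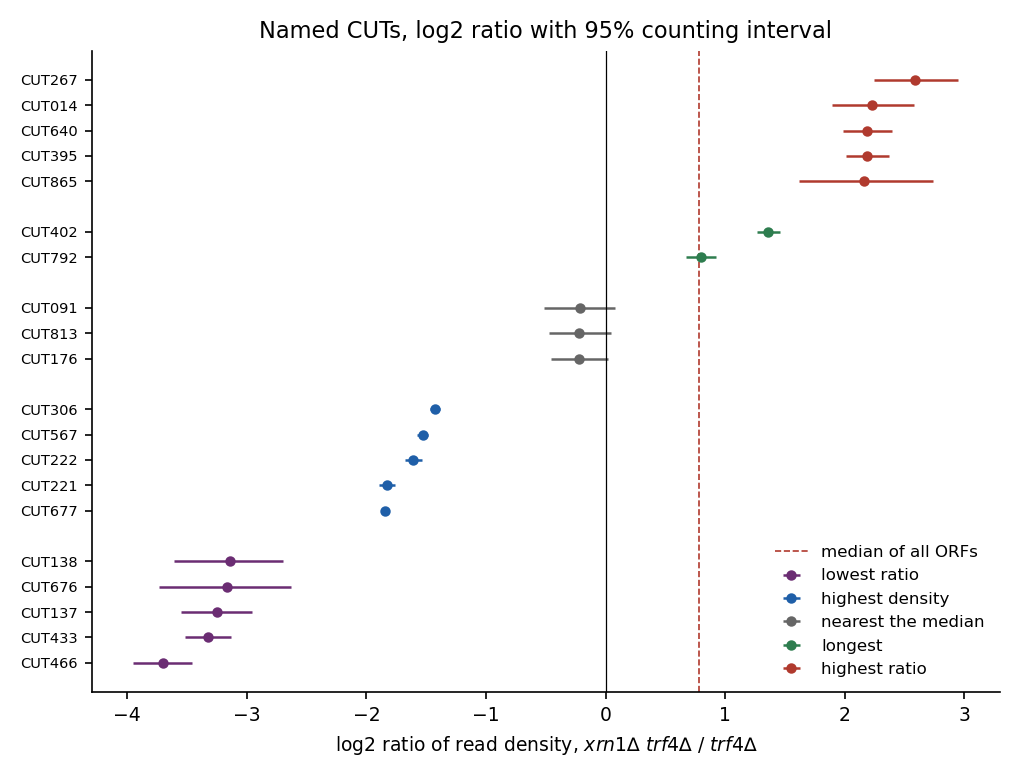
Log2 ratio of read density, *xrn1*∆ *trf4*∆ over *trf4*∆, of CUTs named for their density, ratio or greatest length (points) with 95% counting intervals (bars), grouped by the rule that named them. The 5 CUTs of highest density lie between -1.84 and -1.43, and the 5 highest ratios lie right of the dashed line, the median of all ORFs (0.78).

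The ratio was also described by level. Level here is the geometric mean density that the rule used, computed from the same densities as the ratio, so the values are a description. In the bands of geometric mean density from 0.2 to 0.3, 0.3 to 0.5 and 0.5 to 1, the median log2 ratio of CUTs was -0.22 (159 CUTs), 0.09 (146) and -0.22 (107). It was -0.68 for the 32 CUTs from 1 to 2 and -1.83 for the 11 CUTs of 2 or more, a band that rests on few transcripts. At least 2-fold lower density was found for 15 of those 32 CUTs (46.9%) and for 9 of those 11 (81.8%). The shares of ORFs in these bands were 3.23% and 8.53%. From 1 to 2 the share was 15.4% of 13 SUTs and 0% of 10 XUTs. ORFs in the same 5 bands had medians of 1.08, 0.92, 0.67, 0.34 and -0.06, so ORF ratios were also lower at high density, and the CUT median lay below the ORF median in each band. Over the 455 CUTs, Spearman's rho between geometric mean density and log2 ratio was -0.13. The points of this and the following correlations share both libraries, so no p-value is given.

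Length went with the ratio. It was recovered from the same densities that the rule used, and density is reads over length, so the values are a description. The shortest quartile of the CUTs (up to 249 nt, 116 CUTs) had a median log2 ratio of -0.50, the next (up to 409 nt, 116 CUTs) -0.32, the third (up to 561 nt, 112 CUTs) -0.25 and the longest (over 561 nt, 111 CUTs) 0.41. In the longest quartile 32 CUTs (28.8%) were at least 2-fold higher in *xrn1*∆ *trf4*∆ and 12 (10.8%) at least 2-fold lower. In the shortest quartile 14 (12.1%) were at least 2-fold higher and 43 (37.1%) at least 2-fold lower. Over all transcripts these shares were 40.5% higher and 6.53% lower, so the longest CUTs too were less often 2-fold higher than transcripts in general. Over 561 nt and under the same rule of density, 58.8% of SUTs, 54.5% of XUTs and 32.3% of ORFs were at least 2-fold higher. Spearman's rho between length and log2 ratio was 0.26 and Pearson's r on log2 length was 0.26 over the 455 CUTs. Length also went with density in *trf4*∆ (rho -0.28), where short CUTs stood higher, and hardly with density in *xrn1*∆ *trf4*∆ (rho -0.02). The median densities of the shortest quartile were 0.392 in *xrn1*∆ *trf4*∆ and 0.570 in *trf4*∆, and those of the longest quartile 0.396 in *xrn1*∆ *trf4*∆ and 0.30 in *trf4*∆.

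The same can be read from the other side. The 67 CUTs at least 2-fold higher in *xrn1*∆ *trf4*∆ had a median length of 553 nt, the 275 CUTs within 2-fold had 425 nt, and the 113 CUTs at least 2-fold lower had 321 nt. The longest CUTs were CUT792 (3433 nt), with a density of 0.360 in *xrn1*∆ *trf4*∆ and 0.207 in *trf4*∆, and CUT402 (2865 nt), with 0.985 in *xrn1*∆ *trf4*∆ and 0.384 in *trf4*∆. Both were higher in *xrn1*∆ *trf4*∆, with log2 ratios of 0.80 (0.67 to 0.92) and 1.36 (1.26 to 1.46). CUT792 changed sign, to -0.14, with the median ORF set equal in both libraries. The shortest recovered lengths were 15 nt for CUT361 and 35 nt for CUT180, both shorter than a read of 50 nt, so the true lengths are probably multiples of these. CUT361 had a density of 0.793 in *xrn1*∆ *trf4*∆ and 1.0 in *trf4*∆, and CUT180 had 2.13 in *xrn1*∆ *trf4*∆ and 9.34 in *trf4*∆.

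Within the same limits of length, CUTs of lower abundance had medians of 0.32, -0.27, -0.29 and 0.25 from short to long, with a rho of -0.04 over 460 CUTs. SUTs with a density of at least 0.2 had 0.40, 0.98, 1.0 and 1.24, and XUTs 0.77, 0.46, 0.59 and 1.12. ORFs had 0.95, 1.04, 1.04 and 0.63, with a rho of -0.21 over 3969 ORFs. Higher ratios of the longest quartile than of the shortest were thus found in CUTs of higher abundance, SUTs and XUTs and not in CUTs of lower abundance or ORFs. The shortest quartile held fewer reads per CUT, with medians of 106 in *xrn1*∆ *trf4*∆ and 87.5 in *trf4*∆, against 540 in *xrn1*∆ *trf4*∆ and 259 in *trf4*∆ in the longest quartile. Among CUTs with at least 30 reads in each library, the median of the longest quartile lay 0.95 above that of the shortest, where it was 0.91 over all 455. With the rule on *xrn1*∆ *trf4*∆ density alone it was 0.59, and with a geometric mean density of at least 0.5 it was 1.59.

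**Figure D4:**
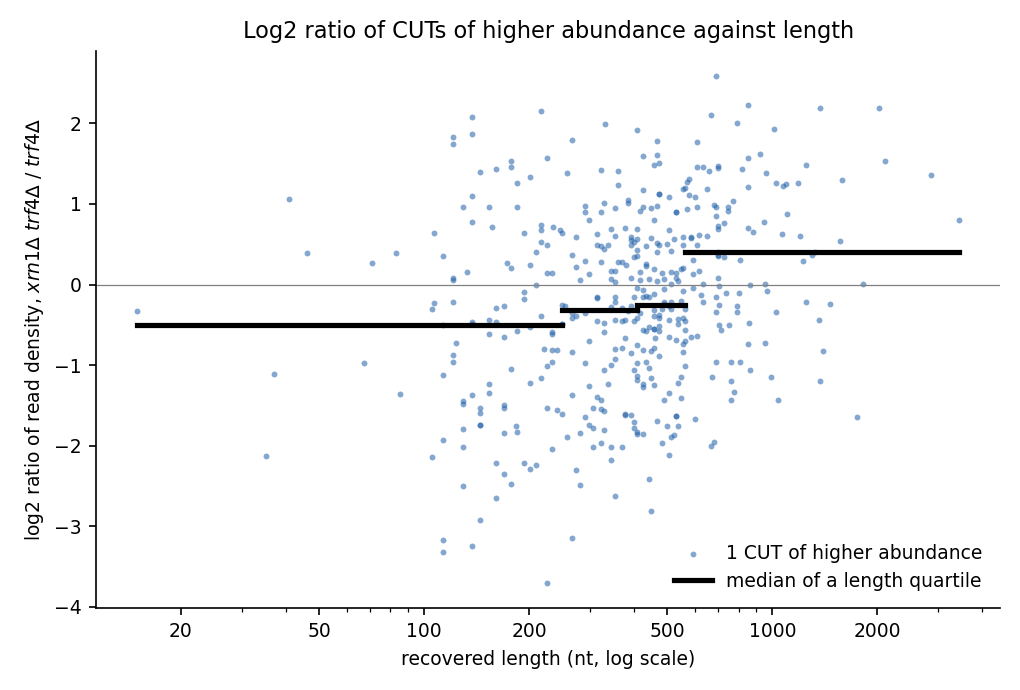
Log2 ratio of read density, *xrn1*∆ *trf4*∆ over *trf4*∆ (y axis), of each of the 455 CUTs against its recovered length in nt (x axis, log scale), with the median of each quartile of length (black lines). The medians are -0.50, -0.32, -0.25 and 0.41 from the shortest to the longest quartile, and each quartile holds CUTs on both sides of 0.

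The recovered lengths of CUTs lay on a regular grid. For 429 of the 455 CUTs (94.3%) the length was 1 more than a multiple of 8 nt. This held for 93.7% of the CUTs of lower abundance and 94.3% of SUTs, against 13.4% of XUTs and 14.4% of ORFs. Of the other 26 CUTs, 21 had odd lengths, CUT361 and CUT180 among them. Every odd length has a multiple on the grid, so nothing about their true lengths follows from it. The remaining CUT019, CUT315, CUT342, CUT480 and CUT798 had even lengths, which have none.

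**Figure D5:**
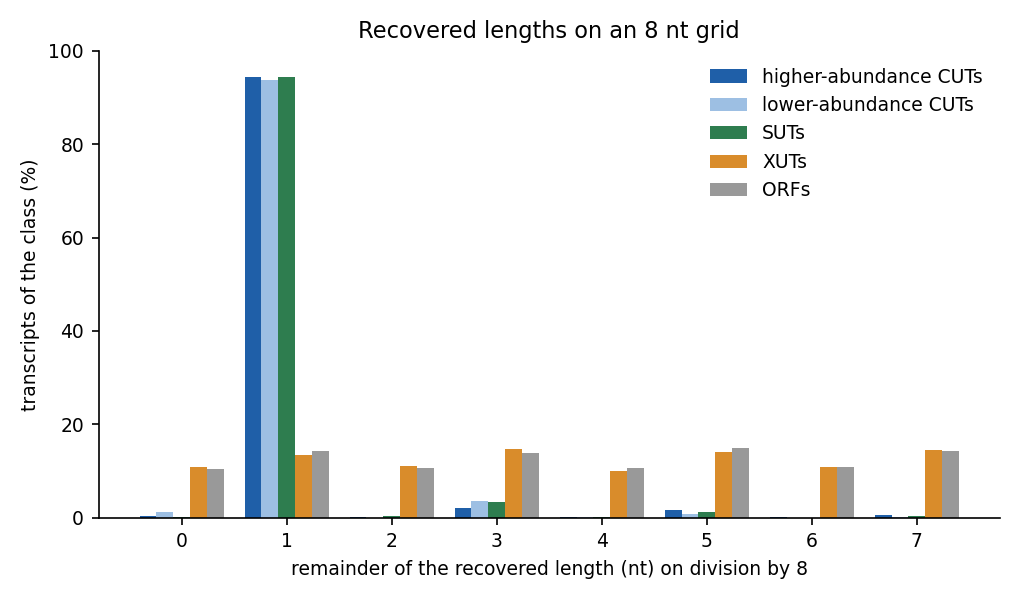
Share of transcripts of each class, in percent (y axis), by the remainder of their recovered length in nt on division by 8 (x axis). CUTs and SUTs stand at a remainder of 1 (94.3% of CUTs of higher abundance), while XUTs and ORFs are spread over all remainders.

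The CUTs nearest the density limit on either side were picked for their levels and are given as a description. CUT778 had a density of 0.218 in *xrn1*∆ *trf4*∆ and 0.184 in *trf4*∆, and CUT080 had 0.220 in *xrn1*∆ *trf4*∆ and 0.183 in *trf4*∆, both just inside. CUT897 had 0.159 in *xrn1*∆ *trf4*∆ and 0.251 in *trf4*∆, and CUT633 had 0.181 in *xrn1*∆ *trf4*∆ and 0.220 in *trf4*∆, both just outside. One pair inside the group, CUT020 and CUT506, had the same densities in both libraries, 0.391 in *xrn1*∆ *trf4*∆ and 0.180 in *trf4*∆, with the same length of 473 nt, 295 reads in *xrn1*∆ *trf4*∆ and 85 in *trf4*∆. Whether the same reads stand under both names was not tested, and both are counted among the 455 CUTs and among the 67 at least 2-fold higher. Without the pair, 65 CUTs were at least 2-fold higher.

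The genes of the machinery that acts on CUTs were compared in the same way. Of 21 genes of TRAMP, the nuclear exosome and its cofactors and the Nrd1 complex, 20 had a density above 0 in both libraries. Of these, 7 were at least 2-fold higher in *xrn1*∆ *trf4*∆ and 0 at least 2-fold lower, with a median log2 ratio of 0.71. *AIR1* and *AIR2*, which encode the RNA-binding subunits of TRAMP, had log2 ratios of 1.85 and 1.87. *TRF5*, the paralogue of *TRF4*, had a density of 0.185 in *xrn1*∆ *trf4*∆ and 0.0918 in *trf4*∆, a log2 ratio of 1.01 (0.77 to 1.27). *MTR4*, the TRAMP helicase, was the lowest of the list, with a density of 0.594 in *xrn1*∆ *trf4*∆ and 0.831 in *trf4*∆. Of 16 genes of decapping and 5′–3′ decay, 6 were at least 2-fold higher in *xrn1*∆ *trf4*∆, and the deleted *XRN1* alone was at least 2-fold lower. Both shares of higher genes, 7 of 20 and 6 of 16, stand beside 40.5% of all transcripts.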

How the data were processed

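The authors prepared libraries from rRNA-depleted total RNA, sequenced reads of 50 nt on a SOLiD instrument and aligned them to the S288c genome with Bowtie (0.12.7, also named in the submitters' processing notes), allowing up to 3 mismatches. Reads with a unique position were kept. The deposited values are a read-density signal, coverage in reads per nucleotide for each transcript, which the authors normalized on total reads mapped on ORFs. The genome build, the annotation release and whether counting used the strand are not given in the sources used here, so values of overlapping or antisense transcripts are uncertain. Both value columns were used, and 0 were left out.

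CUTs and SUTs were read from their identifiers, and numbered entries of another form were read as XUTs. ORF lengths came from the R64 assembly. Reads were recovered within 1e-06 of a whole number for lengths up to 20000 nt. Log2 ratios carry no pseudocount. For intervals, reads of ORFs were taken at the known length where it was a whole multiple of the smallest one. Reads of CUTs, SUTs and XUTs were taken as recovered. Intervals for single transcripts are exact (Clopper-Pearson) 95% binomial intervals of the share of reads. They cover counting error only, since the reads carry no molecular identifiers and PCR copies count as separate reads. CUTs were named by rule: the 5 of highest geometric mean density, the 5 highest and 5 lowest ratios with at least 30 reads in each library, 2 on either side of the density limit, the 2 shortest and 2 longest, and the 3 nearest the median ratio. An entry equal to another was named with it. CUT841, the 5 CUTs of even length, the neighbours in number of CUT466 and CUT433 and the decay-factor genes given with values were named after their values were seen. The CUTs, gene lists and settings were chosen with earlier results of these data known, and the relation with length and the length grid were looked at after the data were seen. Functions were tested on simulated data. Work was done in Python 3.11.15 with matplotlib 3.10.9, SciPy 1.17.1, pandas 2.3.3 and NumPy 2.4.6.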

Additional observations from a re-analysis of the deposited data

How the results depend on the processing

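With 1 library per strain, a median counts as changed when it left the 95% order-statistic interval of its main value over the CUTs. For a difference of medians, the interval was centred on the main value. Its width was the root of the summed squares of the widths of both medians' intervals. A count changed when it moved by over 1.5 times. These limits reflect the spread between transcripts of the same libraries and do not measure uncertainty between strains. Of 64 values under alternatives, 42 did not change in this sense. The scale moved the median and the counts, and did not turn the direction of the median. Differences of medians do not depend on it. With the median ORF set equal in both libraries, the median log2 ratio of the 455 CUTs was -1.16, with 9 CUTs at least 2-fold higher and 246 at least 2-fold lower, and with the trimmed mean of ORF ratios set to 0 it was -1.0, with 14 higher and 228 lower. Both settings place ORFs near 0 by construction and lower all transcripts alike. The shares of all transcripts at least 2-fold higher or lower were not computed at these scales. The counts there thus do not set CUTs apart from other transcripts. Of ORFs of the same density, 37.9% were higher in *xrn1*∆ *trf4*∆ under the first setting and 44.8% under the second. Equal sums of ORF densities changed none of the 3 values.

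The rule of density was varied too. The shares of all transcripts under the varied rules were not computed, so the counts below describe CUTs alone. A geometric mean of at least 0.5 gave a median of -0.43, with 18 CUTs at least 2-fold higher and 52 lower, and a length difference (longest minus shortest quartile, 0.91 in the main setting) of 1.59. At least 0.1 gave 110 CUTs at least 2-fold higher, from a larger group of 659 (16.7%). A density of at least 0.2 in *trf4*∆ alone gave a median of -0.44 and a difference from the remaining CUTs of -0.80. Of its 458 CUTs, 35 (7.64%) were at least 2-fold higher. In *xrn1*∆ *trf4*∆ alone, the median was reversed to 0.19 and the difference from the remaining CUTs to 0.60 (-0.28 in the main setting). Under that rule 68 of 439 CUTs (15.5%) were at least 2-fold lower and the difference from ORFs was -0.59. In both libraries, 35 of 341 CUTs (10.3%) were at least 2-fold higher, 68 (19.9%) lower, and the difference from ORFs was -0.67. A rule on 1 library favours CUTs that are high in that library by construction. The difference from ORFs came to -0.71 with a pseudocount of 0.1.

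The length difference stayed between 0.59 and 1.59 under the 8 settings tried, all chosen after seeing the data, as was leaving out the 7 CUTs of highest density, which gave a median of -0.16. Of the named CUTs whose counting interval did not hold 0, CUT792 alone was reversed by a scaling, to -0.14 with the median ORF set equal. No paired analysis was possible because each strain has 1 library.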
